A study of Homo sapiens with 15 samples.

Results

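The Tumor Metastasis PCR array carries assays for 3 growth factors, IGF1, HGF and VEGFA, and for 3 receptor tyrosine kinases, MET, FLT4 and FGFR4. These 6 genes were chosen by name among the 84 target genes of the array. Each sample fills 96 wells of SYBR Green quantitative PCR, of which 5 hold housekeeping genes and 7 are control wells. The cells were MDA-MB-231 and MDA-MB-468, established human cell lines from triple-negative breast cancer, which lacks the estrogen receptor, the progesterone receptor and HER2 amplification. Each line was either left unstimulated or kept for 24 h in conditioned medium (CM) of monocyte-derived macrophages (MDM) that had themselves been polarised by supernatant of one of these cancer lines. By the labels, MDA-MB-231 gave 3 samples with CM and 4 unstimulated ones, and MDA-MB-468 gave 4 of each kind, 1 sample of each group having no number in its title. The deposited ratio without a number is the mean of the 3 numbered ones in each line, so whether these unnumbered samples are separate cultures is not settled. The series text gives 24 h and the paper another duration. The labels name no genetic change in either line, and they do not give the macrophage donor of a CM sample or the medium of the unstimulated cells.

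Growth factors are secreted proteins that bind receptor tyrosine kinases on the cell surface, which then phosphorylate each other and switch on the RAS-MAPK and PI3K-AKT pathways. HGF is the ligand of MET, the pair that drives scattering and invasive growth of epithelial cells. IGF1, which promotes survival and growth, and VEGFA, which drives the growth of blood vessels, act on receptors other than the kinases measured here. FLT4, also named VEGF receptor 3, binds VEGFC and VEGFD and is best known from lymphatic endothelium, and FGFR4 binds members of the FGF family. In tumours, HGF and IGF1 are classically made by fibroblasts and macrophages and reach the cancer cell from outside.

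The values are fold changes of CM over unstimulated, with 3 numbered comparisons per line, each named here by the number of its unstimulated control, 2, 3 or 4. In both lines the header of the comparison with control 4 carries the number of CM sample 3, so whether it shares a CM sample with the comparison with control 3 cannot be told from the headers, although each ratio column was seen to match in value a pair of threshold cycle columns of its own. The column headers of MDA-MB-468 refer to a control of the other line, whereas the study's supplementary table sets the corresponding fold changes of this line against its own control group, and they are read in that way here. The reference was ACTB for MDA-MB-231 and RPLP0 for MDA-MB-468, whose fold change was set to 1 in every comparison. The text calls a gene raised if the geometric mean of its 3 fold changes exceeded 2 with every comparison above 1, and lowered if that mean was below 0.5 with every comparison under 1. These calls rest on no test.

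The comparison of MDA-MB-468 with control 4 stood apart from the other comparisons of that line. It gave the lowest fold change of the 3 comparisons for 76 of the 84 target genes, and the median of the 84 genes was -0.92 on the log2 scale there, against 0.17 with control 2 and 0.35 with control 3. In MDA-MB-231 the corresponding medians were 0.37, -0.04 and 0.39 with controls 2, 3 and 4. The positive PCR control wells hold a preset template and are meant to read the efficiency of the amplification. In MDA-MB-468 their fold changes were 2.02, 1.12 and 0.436 on the same scale, which also includes any shift of RPLP0 itself. On the log2 scale they were 1.01, 0.17 and -1.20, beside 0.72, 0.31 and -0.27 in the reverse transcription control wells. How much amplification and RPLP0 each contributed was not tested. For IGF1, HGF, VEGFA, FLT4, MET and FGFR4 the mean in MDA-MB-468 is therefore also given without control 4, and for lists of genes the median is given by comparison.

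CM was accompanied by higher transcript levels of all 3 growth factors and of 1 of the 3 receptors, FLT4, in both cell lines. IGF1, HGF, VEGFA and FLT4, 4 of the 6 genes, were raised in MDA-MB-231, where 31.0% of the 84 target genes were, and the same 4 genes in MDA-MB-468, where 27.4% were. MET and FGFR4 were neither raised nor lowered in either line. None of the 6 genes was lowered, as against 3.57% of target genes in each line. Raised in both lines were 25.0% of the target genes. A fold change over 2 in each single comparison was reached by 3 of the 6 genes in MDA-MB-231, where 23.8% of target genes reached it, and by 4 in MDA-MB-468, where 22.6% did. The log2 ratios of each line were also tested against 0 with limma, which called the same 4 genes higher after CM in each line, beside 34.5% of target genes in MDA-MB-231 and 27.4% in the other line. The highest of their Benjamini-Hochberg adjusted limma p-values was 0.00155, for VEGFA in MDA-MB-231, while in MDA-MB-468 it was 0.000943, for FLT4. MET and FGFR4 had adjusted limma p-values between 0.678 and 0.783. In MDA-MB-468 limma gave all genes the same pooled spread, and the shift of the comparison with control 4 is shared by most genes, so the p-values of that line are too small. For MDA-MB-231 the labels list no CM sample numbered 4, and the header of that comparison carries the number 3. Its ratios with controls 3 and 4 may thus share a CM sample, whereas limma treats the 3 ratios as independent. If they do, the p-values of MDA-MB-231 are too small as well. In RNA from whole cultures, more RNA per cell and more cells that express a gene cannot be told apart.

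**Figure D1:**
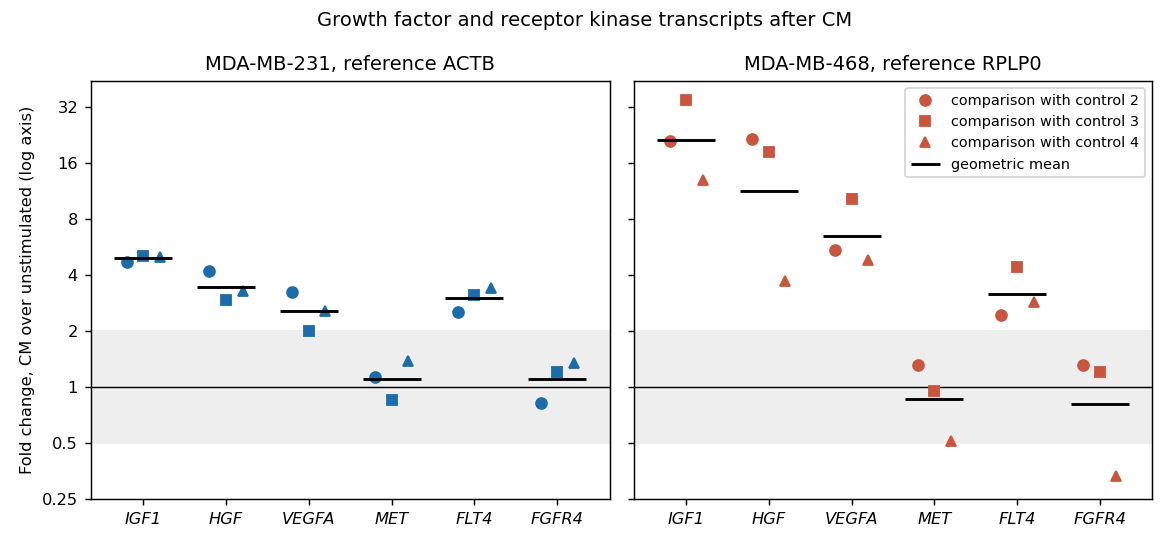
Fold change of each growth factor and receptor transcript, CM over unstimulated, on a log axis with MDA-MB-231 in the left panel and MDA-MB-468 in the right panel. Points are the comparisons with controls 2, 3 and 4, black lines are geometric means, and the grey band spans 0.5 to 2; IGF1, HGF, VEGFA and FLT4 have means above the band in both lines, and MET and FGFR4 have means inside it.

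IGF1, a hormone-like growth factor that acts through its own receptor kinase, had the highest mean fold change of the 6 genes in both lines. Its fold changes in MDA-MB-231 were 4.65, 5.06 and 4.97 in the comparisons with controls 2, 3 and 4, a geometric mean of 4.89 (log2 2.29 ± 0.06, SD, n = 3 comparisons). In MDA-MB-468 its fold changes were 20.9, 34.8 and 13.0, a geometric mean of 21.1 (log2 4.40 ± 0.71, SD, n = 3 comparisons). All 3 values of MDA-MB-468 lay above all 3 of MDA-MB-231. Among the 84 target genes, ordered from the highest fold change down, IGF1 ranked 3, 2 and 5 in MDA-MB-231, whereas it ranked 2, 1 and 1 in MDA-MB-468. Without the comparison with control 4 its geometric mean in MDA-MB-468 was 27.0.

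HGF, the ligand of MET, rose in all 6 comparisons. The fold changes were 4.21, 2.94 and 3.29 in MDA-MB-231, a geometric mean of 3.44 (log2 1.78 ± 0.26, SD, n = 3 comparisons). In MDA-MB-468 they were 21.4, 18.2 and 3.71, a geometric mean of 11.3 (log2 3.50 ± 1.40, SD, n = 3 comparisons). The value of 3.71 fell inside the range of MDA-MB-231, so the lines overlapped for HGF, while the comparisons with controls 2 and 3 lay above every value of MDA-MB-231. Without the comparison with control 4 the geometric mean in MDA-MB-468 was 19.7, against 11.3 over all 3 comparisons. HGF ranked 1, 2 and 6 of the 84 target genes in MDA-MB-468 and 6, 14 and 20 in MDA-MB-231.

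The range of HGF in MDA-MB-468 depended on what its values were divided by. Over the 3 comparisons the highest fold change of HGF was 5.76 times the lowest. Relative to the positive PCR control wells in place of RPLP0 the fold changes were 10.6, 16.2 and 8.52, and the highest was 1.91 times the lowest. Of the 4 raised genes HGF was the one whose range narrowed in this step. The range widened for FLT4 from 1.81 to 5.39 times, for VEGFA from 2.10 to 4.12 times and for IGF1 from 2.68 to 2.99 times. MET and FGFR4, which were not raised, also narrowed, from 2.55 to 1.82 times and from 3.94 to 1.65 times. This step removes RPLP0 as well as bringing in the positive PCR control wells. Relative to the reverse transcription control wells, the range was 3.30 times for HGF, 2.21 for IGF1, 2.48 for VEGFA and 2.40 for FLT4. For MET it was 1.29 times and for FGFR4 2.43 times. The parts of RPLP0 and of the control wells in these ranges were not tested.

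VEGFA, which codes for the main growth factor of blood vessel endothelium, had a smaller mean rise than IGF1 and HGF in both lines. In MDA-MB-231 its fold changes were 3.22, 1.99 and 2.56, a geometric mean of 2.54 (log2 1.34 ± 0.35, SD, n = 3 comparisons). In MDA-MB-468 they were 5.43, 10.2 and 4.83, a geometric mean of 6.43 (log2 2.69 ± 0.58, SD, n = 3 comparisons), and 7.42 without the comparison with control 4. As for IGF1, every value of MDA-MB-468 exceeded every value of MDA-MB-231. The call of VEGFA in MDA-MB-231 was the one that depended on the reference, its mean fold change being 1.92 relative to the positive PCR control wells, under the threshold of 2.

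FLT4, the receptor of the lymphatic vessel growth factors, was the single raised receptor of the 3. Its fold changes were 2.54, 3.11 and 3.40 in MDA-MB-231, a geometric mean of 2.99 (log2 1.58 ± 0.22, SD, n = 3 comparisons). In MDA-MB-468 they were 2.44, 4.42 and 2.85, a geometric mean of 3.13 (log2 1.65 ± 0.44, SD, n = 3 comparisons), with a mean log2 of 1.72 without the comparison with control 4. The lines overlapped, and the means differed by 1.05-fold, less than the spread between comparisons.

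MET, the receptor of HGF, had no consistent direction in the same comparisons. Its fold changes were 1.13, 0.847 and 1.38 in MDA-MB-231, a geometric mean of 1.10 (log2 0.13 ± 0.35, SD, n = 3 comparisons), with values on both sides of 1. In MDA-MB-468 they were 1.31, 0.954 and 0.513, a geometric mean of 0.861 (log2 -0.22 ± 0.69, SD, n = 3 comparisons). Leaving out the comparison with control 4 gave 1.12 in MDA-MB-468. FGFR4 had fold changes of 0.816, 1.21 and 1.34 in MDA-MB-231, a geometric mean of 1.10 (log2 0.13 ± 0.38, SD, n = 3 comparisons). In MDA-MB-468 they were 1.31, 1.20 and 0.332, a geometric mean of 0.804 (log2 -0.31 ± 1.11, SD, n = 3 comparisons). The low mean of FGFR4 in MDA-MB-468 rested on the comparison with control 4, without which it was 1.25. For both receptors the mean log2 change was smaller than the SD between comparisons in each line.

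Of the 6 genes, IGF1 and VEGFA had all values of MDA-MB-468 above all values of MDA-MB-231, a pattern of 8.33% of the target genes, and none had all values below, as against 15.5% of target genes. The geometric mean of MDA-MB-468 was 4.32 times that of MDA-MB-231 for IGF1 and 2.53 times for VEGFA. The count rose to 3 with HGF when ACTB served as the reference in both lines. This difference between the lines was not tested.

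**Figure D2:**
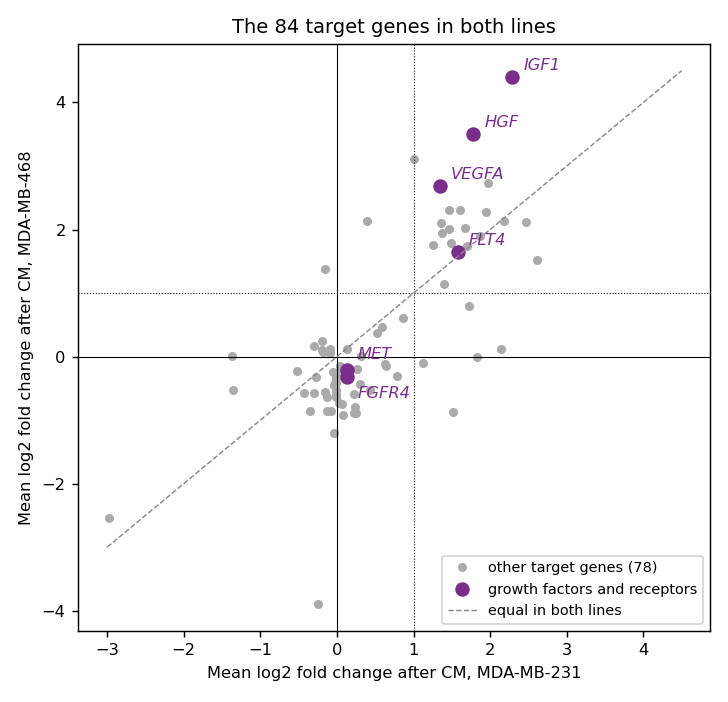
Mean log2 fold change after CM of the 84 target genes in MDA-MB-231 (x axis) and MDA-MB-468 (y axis), the 6 growth factor and receptor genes in purple. The solid lines mark 0, the dotted lines a fold change of 2 and the dashed line equal change; IGF1, HGF and VEGFA lie above the dashed line, FLT4 on it at 1.58 and 1.65, and MET and FGFR4 near the origin.

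The distance between the raised genes and the receptors that were not raised can be read without any reference gene, because the reference cancels in the ratio of 2 fold changes of the same comparison. For HGF over its receptor MET this ratio was 3.73, 3.47 and 2.38 in MDA-MB-231, a geometric mean of 3.14. In MDA-MB-468 it was 16.4, 19.1 and 7.24, a geometric mean of 13.1, and all 3 values exceeded those of MDA-MB-231. On the log2 scale its mean there was 3.71, and 4.14 without the comparison with control 4. Dividing IGF1, HGF, VEGFA and FLT4 each by MET and by FGFR4 gave 48 ratios in all, 24 per line, and all 48 were above 1. They ranged from 1.64 to 5.97 in MDA-MB-231, whereas the range was 1.87 to 39.1 in MDA-MB-468. Since the numerators were chosen as the raised genes, these ratios are a description.

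**Figure D3:**
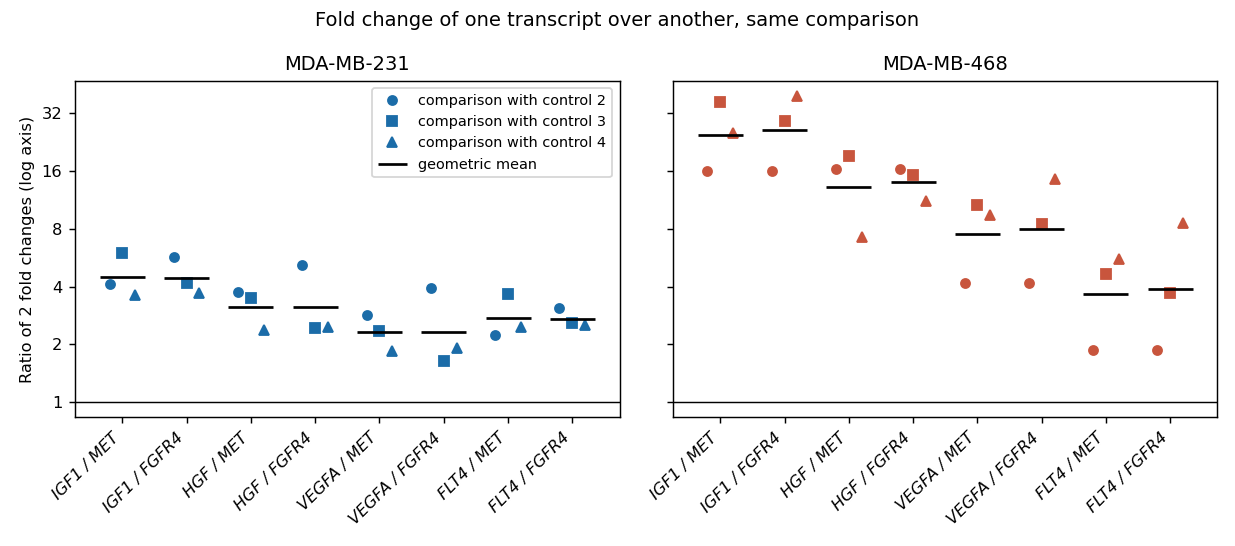
Fold change of each raised gene divided by that of MET or FGFR4 in the same comparison, on a log axis, with MDA-MB-231 in the left panel and MDA-MB-468 in the right panel; points are the comparisons with controls 2, 3 and 4 and black lines the geometric means. No reference gene enters these ratios, and all 48 points lie above 1, from 1.64 to 39.1.

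Among the raised genes themselves the order differed between lines and comparisons. IGF1 over HGF was 1.42 as a geometric mean in MDA-MB-231, with all 3 values between 1.11 and 1.72. In MDA-MB-468 it was 1.87, but ranged from 0.977 to 3.49, so these neighbours in the order did not separate there. VEGFA over FLT4 was 0.849 in MDA-MB-231, with values from 0.639 to 1.27 on both sides of 1, compared with 2.05 in MDA-MB-468, where all 3 values lay between 1.70 and 2.29.

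The HGF and MET genes, a ligand and its receptor on the same chromosome, are shown with the sequence before their transcription start because HGF was raised and MET was not. HGF lies on chromosome 7 at 81699010 to 81770047 and MET on chromosome 7 at 116672196 to 116798377 (GRCh38.p14, RefSeq). In the same annotation the other 4 protein-coding genes are IGF1 on chromosome 12 at 102395874 to 102481839, VEGFA on chromosome 6 at 43770211 to 43786487, FLT4 on chromosome 5 at 180601506 to 180650298 and FGFR4 on chromosome 5 at 177086915 to 177098144. The 250 bases before each start are given 5′ to 3′ on the strand of the gene, chr7:81770048-81770297 on the minus strand for HGF and chr7:116671946-116672195 on the plus strand for MET, with GC boxes (GGGCGG on either strand) in capitals.
HGF: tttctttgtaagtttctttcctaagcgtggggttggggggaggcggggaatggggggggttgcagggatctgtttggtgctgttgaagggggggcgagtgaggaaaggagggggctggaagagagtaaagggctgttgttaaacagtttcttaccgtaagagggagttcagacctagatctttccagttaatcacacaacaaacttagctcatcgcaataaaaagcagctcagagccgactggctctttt
MET: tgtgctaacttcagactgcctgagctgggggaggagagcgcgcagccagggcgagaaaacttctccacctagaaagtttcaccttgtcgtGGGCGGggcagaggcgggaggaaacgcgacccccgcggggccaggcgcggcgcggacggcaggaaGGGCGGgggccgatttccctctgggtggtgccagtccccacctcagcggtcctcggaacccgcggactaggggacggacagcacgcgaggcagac
GC made up 50.0% of the HGF stretch and 68.4% of the MET stretch. MET held 2 GC boxes, which begin 160 and 95 bases before the start, and HGF none, where 42.6% of 35116 RefSeq promoter entries hold at least 1 in the same window. Neither stretch held ACGTG, the core letters of the hypoxia response element (18.5% of entries), TGANTCA, the AP-1 motif (6.57%), TATAAA (10.7%) or TTCNNNGAA, the palindrome of STAT factors (6.57%). These matches describe letters in this window and were not tested against the response to CM.

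A list of 6 other receptor kinase signalling genes held the ephrin receptor EPHB2, the RAS gene HRAS, the kinases SRC and SYK and the transcription factors MYC and ETV4. In MDA-MB-231 1 of the 6, SYK, was raised, where 31.0% of target genes were, and none was lowered, and the median log2 fold change of the list was -0.03, against 0.13 over the 84 target genes. In MDA-MB-468 none of the 6 was raised, where 27.4% of target genes were, and none was lowered. The median of the list there was 0.05, -0.14 and -1.28 on the log2 scale with controls 2, 3 and 4, so the -0.54 over the means of the 3 comparisons rested on control 4, as did the -0.16 over the 84 genes. A list of 8 other secreted ligands, CCL7, CXCL12, IL1B, IL18, TGFB1, TNFSF10, KISS1 and GNRH1, had 5 raised and 0 lowered members in each line, beside the same shares of 31.0% and 27.4%. Its median was 1.23 on the log2 scale in MDA-MB-231, compared with 1.77 in MDA-MB-468, where it was 1.96, 1.71 and 1.06 by comparison. The lists were not tested against each other. The median of IGF1, HGF and VEGFA was 1.78 in MDA-MB-231 against 3.50 in MDA-MB-468, where it was 4.39, 4.19 and 2.27 by comparison. The median of MET, FLT4 and FGFR4 was 0.13 and -0.22, and by comparison in MDA-MB-468 it was 0.39, 0.26 and -0.96, with control 4 alone below 0.

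Of the target genes, the one closest to IGF1 over the 6 comparisons was HGF and the reverse, with a root mean square difference of 0.92 between their log2 fold changes. The closest to VEGFA was MCAM, a cell adhesion molecule, at 0.42. FLT4 was closest to the chemokine CCL7 at 0.38, MET to MYC at 0.18 and FGFR4 to the catenin CTNNA1 at 0.27. The median difference from all other target genes was 3.60 for IGF1, 2.89 for HGF, 2.23 for VEGFA, 1.75 for FLT4, 0.60 for MET and 0.66 for FGFR4. The 6 comparisons share the array, and comparisons of one line may share samples, so this likeness is a description.

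Macrophages express IGF1 and HGF, and CM comes from macrophages, so the array's 10 macrophage-expressed genes (CCL7, CST7, CTSL, CXCR4, IL18, IL1B, MMP9, PLAUR, SYK and TGFB1) were read beside these results. MDA-MB-231 had 4 of the 10 raised, MDA-MB-468 had 3, and none was lowered in either line, where 31.0% and 27.4% of all target genes were raised. On the log2 scale the list had a median of 0.47 in MDA-MB-231, with a range of -0.30 to 2.61, against -0.02 in MDA-MB-468, with a range of -0.88 to 2.13. By comparison the median in MDA-MB-468 was 0.15, 0.55 and -0.84. Cancer cells can express these genes too, and the part of carried-over macrophage RNA in the rise of IGF1 and HGF was not tested. A fold change gives no level, and levels were not used here, so the identity of the lines was not checked against their defining markers. Of 4 such markers, RB1, SMAD4, CDH1 and CDKN2A, MDA-MB-468 is known to lack RB1 and SMAD4 and to express CDH1. MDA-MB-231 is known to lack CDKN2A and to have little CDH1. By the call rule SMAD4 was lowered in MDA-MB-231, with a mean fold change of 0.127. RB1 and SMAD4 were lowered in MDA-MB-468, at 0.0672 and 0.172. A fall of genes that this line lacks is not read here as an effect of CM. These markers bear on which control the columns of MDA-MB-468 were set against, which was not tested. CDH1 had 1.51 in MDA-MB-231 compared with 1.39 in MDA-MB-468 and was neither raised nor lowered. CDKN2A had 0.807 in MDA-MB-468, and its values in MDA-MB-231 are not read here because those with controls 2 and 4 equalled the reverse transcription control wells.

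The control wells had fold changes of their own. The genomic DNA control well had, relative to the reference genes, a mean log2 ratio of 0.89 in MDA-MB-231, compared with 1.09 in MDA-MB-468. The reverse transcription control wells had 0.25, 0.46 and 0.78 with controls 2, 3 and 4 in MDA-MB-231, and 0.72, 0.31 and -0.27 in MDA-MB-468. In each comparison the 3 reverse transcription control wells had identical values, and CDKN2A shared them in MDA-MB-231 with controls 2 and 4 (within 0.001 on the log2 scale), as wells set to 1 common cycle would. Such wells carry the shift of the reference gene and no signal of their own. None of the 6 growth factor and receptor genes had this value in any comparison. Whether the unstimulated well alone of one of these genes lay at such a cycle, which would make its fold change a lower bound, was not tested. The part of genomic DNA in these fold changes was not tested.

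The main values were compared with 7 alternative reference settings. Among these, ACTB for both lines repeats the main reference of MDA-MB-231, and RPLP0 for both lines that of MDA-MB-468. Across the 7 settings the mean fold change of IGF1 was 3.70 to 5.62 in MDA-MB-231 and 18.0 to 24.6 in MDA-MB-468. For HGF the ranges were 2.60 to 3.95 and 9.61 to 13.2, and for FLT4 2.27 to 3.44 and 2.66 to 3.65. IGF1, HGF and FLT4 were raised in both lines under each of these references. VEGFA ranged from 1.92 to 2.92 and from 5.47 to 7.50. MET stayed between 0.732 and 1.26 and FGFR4 between 0.684 and 1.26 over both lines, and the direction changed with the reference for both in MDA-MB-231 and for MET in MDA-MB-468 as well. The reverse transcription control wells are not among these references, because their identical values are those that wells set to a common cycle would have. Relative to them the means in MDA-MB-231 were lower, at 3.46 for IGF1, 2.44 for HGF, 2.12 for FLT4 and 1.80 for VEGFA.

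**Figure D4:**
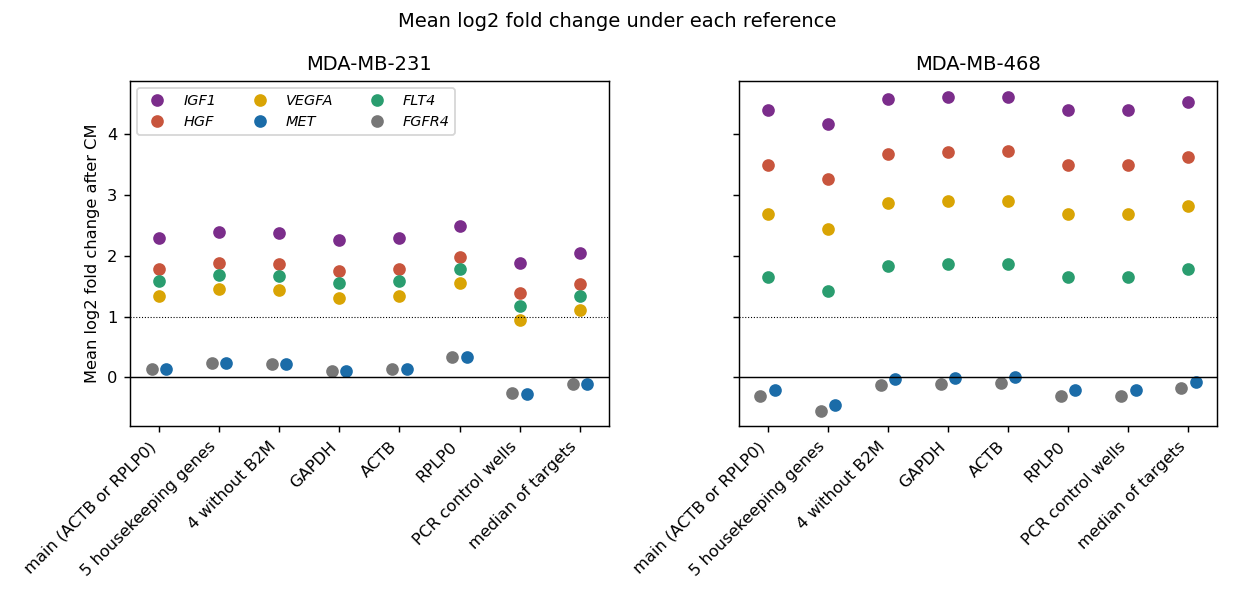
Mean log2 fold change after CM (y axis) of the 6 genes with MDA-MB-231 in the left panel and MDA-MB-468 in the right panel. The x axis holds the main reference and 7 alternative settings. Among these, ACTB repeats the main reference in MDA-MB-231 and RPLP0 that in MDA-MB-468. The dotted line marks a fold change of 2 and the solid line no change. IGF1, HGF and FLT4 stay above the dotted line under each reference, VEGFA drops below it in MDA-MB-231 relative to the positive PCR control wells, and MET and FGFR4 stay near 0.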

How the data were processed

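Total RNA of both lines, with or without MDM CM, was measured by the RT2 Profiler array. The authors used GeneGlobe and deposited fold changes, linear ratios of CM over unstimulated normalized to 5 housekeeping genes, whose geometric mean is 1 in each of the 6 numbered columns. The 2 unnumbered columns are the geometric means of the 3 comparisons (largest log2 difference 0.000188) and add no replicate. Well positions were paired with symbols through the study's supplementary table. The 16 columns of per-sample threshold cycles were not used here, because their names match no sample label. Each ratio column was seen to match a pair of these columns of its own in value, with high cycles set to a common maximum, but samples were not assigned by values. The planned limma fits to single samples, line interaction and baseline contrast need single samples and were not run. The genes and lists were chosen with earlier results of these data known, and the named genes are these 6, the lists of signalling genes, secreted ligands, macrophage-expressed genes and line markers, the control wells and the most alike genes. The call rule and a limma test of the log2 ratios of each line against 0, chosen after seeing the data and adjusted over the 84 target genes, were tested on simulated data. Precision is limited by having 3 comparisons per line, and nothing in the labels says that samples of a group came from separate cultures, so the SD may be technical. Re-referencing to ACTB or RPLP0 follows the genes set to 1 in that supplementary table. The alternatives were other references, that test, a fold change over 2 in each comparison and leaving out each comparison. A few array genes are not reported here, and the list of receptor kinase signalling genes was shortened by them after its values had been seen, although they enter the counts over all target genes. Python 3.11.15, numpy 2.4.6, pandas 2.3.3, matplotlib 3.10.9, R 4.3.3 and limma 3.58.1 were used.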

Additional observations from a re-analysis of the deposited data

How the results depend on the processing

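The count of 4 raised genes held in both lines under the 5 alternative housekeeping settings, of which 1 in each line repeats the main reference. It also held with the median of the 84 target genes (chosen after seeing the data) and with the omission of any 1 comparison. It fell to 3 in MDA-MB-231, by VEGFA, with the positive PCR control wells (chosen after seeing the data). The planned reverse transcription control wells held identical values in each comparison. If they were set to a common cycle, dividing by them leaves the values without normalisation. With them the count was 3 in MDA-MB-231, at mean fold changes of 3.46 for IGF1, 2.44 for HGF, 2.12 for FLT4 and 1.80 for VEGFA. In that setting 16 of the 84 target genes were raised in place of 26. The count of genes with all values of MDA-MB-468 above all of MDA-MB-231 was 2. It was 3 with ACTB in both lines, the positive PCR control wells, the median of the 84 genes and the reverse transcription control wells. When 1 comparison was left out it was 2 to 3, HGF joining without control 2 of MDA-MB-231 or control 4 of MDA-MB-468. None of the results changed sign while called. The median log2 fold change of the 84 target genes varied over the 7 alternative settings, of which 1 in each line repeats the main reference. For MDA-MB-231 this median ranged from -0.27 to 0.33, with a main value of 0.13. The range for MDA-MB-468 was -0.40 to 0.06, beside a main value of -0.16. Each ratio sets CM against a numbered control, and the limma test of the log2 ratios against 0 was used in place of a replicate block. The labels give no pairing of samples, and by the headers the ratios with controls 3 and 4 may share a CM sample. The limma test called the same 4 genes higher and 0 of the 6 lower in each line. The replicate block in a fit to single samples, the cycle cut-offs and the methods' t-test need single samples and were not run.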
